A study of Homo sapiens with 6 samples.

Results

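Zinc-finger genes of chromosome 19 were examined for the regions at which their DNA was retained by the nuclear matrix in H1 cells, an established human embryonic stem cell line. The genes were the protein-coding genes of chromosome 19 whose symbol is ZNF followed by digits, with or without 1 letter after them, in the RefSeq gene table of GRCh38. They numbered 246 of 1451 protein-coding genes on the chromosome and of 20033 on the 24 chromosomes, counting X and Y. Readthrough and divergent symbols, 4 in all (ZNF559-ZNF177, ZNF816-ZNF321P, ZNF765-ZNF761 and ZNF470-DT), were left out. Each gene was taken as its body plus 1 kb on each side, and a region counted in a gene if it overlapped that span by at least 1 bp. The rule used the symbol and the chromosome, and no region count.

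The assay was MAR-seq, which sequences the DNA left on the matrix, the insoluble scaffold of the nucleus, after nuclei have been stripped with detergent and their DNA cut with restriction enzymes. All samples were H1 cells, and nothing but the hairpin distinguishes the groups in the labels. The groups were hPSC (no treatment), shLUC (a short hairpin RNA that targets LUC, taken here as the hairpin control) and shHNRNPU (a short hairpin RNA that targets HNRNPU, a protein of the nuclear matrix with affinity for RNA and DNA), with 2 samples each. Each group is represented by 1 list of 400 bp regions without heights (40106 regions in hPSC, 39368 in shLUC and 36277 in shHNRNPU), so no value below has a replicate error and neither differences between lists nor those between gene groups were tested. Read depth is unknown, the lists cannot show how far HNRNPU was reduced, and transduction, batch and region calling cannot be told apart between hPSC and the hairpin lists.

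C2H2 zinc-finger proteins bind DNA through arrays of finger repeats, each held together by a zinc ion. In most proteins of this family on chromosome 19, a KRAB domain recruits the corepressor TRIM28, which in turn brings the histone methyltransferase SETDB1 and silences the bound DNA, often a transposable element. The genes arose by tandem duplication and lie in clusters, each gene with its own promoter and commonly with the whole finger array encoded in its last exon. Neighbouring copies are similar in sequence. How reads that match several copies were treated is not given in the sources used here, so the assignment of a region between near-identical copies is uncertain.

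In untreated hPSCs, most zinc-finger genes of chromosome 19 carried a region, and it usually lay at the start of the gene. In the hairpin lists, fewer genes carried one and the regions were spread along the gene body. At least 1 hPSC region was found in 180 of 246 genes (73.2%, 95% Wilson interval 67.3 to 78.3%), where 63.0% of all protein-coding genes held one. A shLUC region was found in 99 genes (40.2%, interval 34.3 to 46.5%) and a shHNRNPU region in 104 (42.3%, interval 36.3 to 48.5%), where the shares over all protein-coding genes were 55.6% and 54.9%. The zinc-finger genes thus lay above the genome share in hPSC and below it in both hairpin lists. These intervals treat genes as separate draws and cover counting error only. Bodies with flanks overlapped another member in 54 of the 246 genes, so that a region could count in more than 1.

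The other 1205 protein-coding genes of chromosome 19 served as neighbours. Of these, 52.2% held a region in hPSC, 43.3% in shLUC and 40.9% in shHNRNPU. The zinc-finger genes differed from them by 21.0 percentage points in hPSC (interval 14.5 to 26.8), by -3.08 points in shLUC (interval -9.64 to 3.75) and by 1.36 points in shHNRNPU (interval -5.27 to 8.18). The intervals of both hairpin lists held 0. Zinc-finger genes were longer than these neighbours, with a median of 23152 bp against 12763 bp. Among genes from 10 to 50 kb long, the differences were 15.9 points in hPSC (interval 8.24 to 22.8), -11.3 points in shLUC (interval -18.9 to -3.36) and -8.20 points in shHNRNPU (interval -15.8 to -0.209). The shHNRNPU difference therefore turned from positive to negative in this range of length, while the hPSC difference was positive both there and over all lengths.

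Within narrower bands of length, the hPSC excess was seen in the shortest of the 3 compared. From 10 to 20 kb, 77.5% of 71 zinc-finger genes had an hPSC region, against 45.7% of 335 other genes of the chromosome. From 20 to 40 kb the shares were 69.8% of 106 and 70.2% of 238. From 40 to 80 kb they were 78.8% of 33 and 76.9% of 117. In shLUC the zinc-finger share was the lower one in all 3 bands, at 35.2% against 38.5%, 34.9% against 56.3% and 57.6% against 76.1%. In shHNRNPU it was also lower in each band, at 35.2% against 36.4%, 38.7% against 54.6% and 51.5% against 70.1%. Over all lengths, zinc-finger genes of the other chromosomes (263 genes) had a region in 70.0% of cases in hPSC, 58.6% in shLUC and 58.2% in shHNRNPU. They so did not fall as low in the hairpin lists. From 40 to 80 kb, however, their shLUC share was the lower one, at 51.0% of 49 genes against the 57.6% of chromosome 19.

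**Figure D1:**
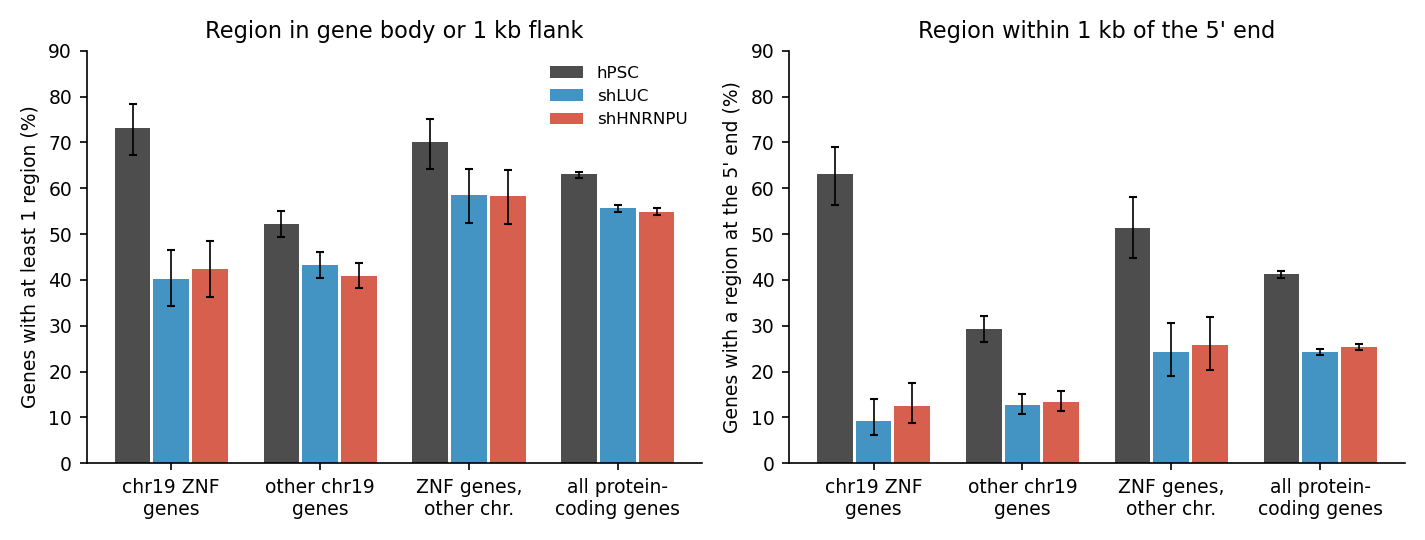
Percentage of genes with a region (left, body plus 1 kb flanks) and with a region centred within 1 kb of the 5′ end (right, genes of known strand) in the 3 lists; bars are shares and error bars are 95% Wilson intervals. Chromosome 19 ZNF genes have the tallest hPSC bar of the 4 gene groups in both panels (73.2% and 63.0%), and at the 5′ end the lowest hairpin bars (9.26% in shLUC and 12.5% in shHNRNPU).

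In numbers of regions, the genes held 212 of the 1301 hPSC regions of the chromosome (16.3%), 121 of 1112 shLUC regions (10.9%) and 119 of 1018 shHNRNPU regions (11.7%). The members made up 22.2% of the 33.8 Mb covered by chromosome 19 protein-coding genes and their flanks. The shares of regions also count regions outside those genes, so they cannot be set against this 22.2% directly. The other protein-coding genes of the chromosome held 805 regions in hPSC, 717 in shLUC and 673 in shHNRNPU. The density of the members was 28.3 regions per Mb in hPSC, 16.2 in shLUC and 15.9 in shHNRNPU, while the other genes of the chromosome had 30.3, 27.0 and 25.3. The log2 ratio of shLUC to hPSC regions was -0.81 in the zinc-finger genes (exact interval -1.14 to -0.48), -0.17 in the other chromosome 19 genes (interval -0.31 to -0.02) and -0.06 in zinc-finger genes of the other chromosomes (interval -0.30 to 0.18). Over the whole lists it was -0.03. Chromosome 19 had 189 fewer regions in shLUC than in hPSC, and 91 of this difference lay in the zinc-finger genes.

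In hPSC most genes held a single region, and in the hairpin lists most held none. In hPSC, 66 genes had none, 146 had 1, 26 had 2, 6 had 3, and 1 gene each had 4 and 5. In shLUC, 147 had none and 79 had 1, and in shHNRNPU 142 had none and 89 had 1. Presence was uneven across lists. A region in hPSC alone was the most frequent pattern, with 81 genes (32.9%), followed by a region in all 3 lists with 57 (23.2%) and in none with 37 (15.0%). Both hairpin lists but not hPSC had a region in 18 genes. The shares over all genes were not computed for the hPSC-alone pattern or for that of these 18. A region in hPSC and none in shLUC, whatever shHNRNPU had, was seen in 106 genes (43.1%, against 19.7% of all genes). The reverse was seen in 25 genes (10.2%, against 12.4% of all genes). Over all protein-coding genes, 38.5% had a region in each of the 3 lists and 22.9% in none. For the other genes of chromosome 19 these shares were 24.0% and 32.2%. The share with a region in all 3 lists was thus near that of the chromosome.

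The position of regions within the gene separated the lists. RefSeq promoter records gave a strand for 216 of the 246 genes, 116 on the plus and 100 on the minus strand, so that the 5′ and 3′ ends could be told apart. An hPSC region was centred within 1 kb of the 5′ end in 136 of 216 genes (63.0%, interval 56.3 to 69.1%). The same was true of 20 genes in shLUC (9.26%, interval 6.07 to 13.9%) and 27 in shHNRNPU (12.5%, interval 8.73 to 17.6%). For the other genes of the chromosome these shares were 29.2%, 12.8% and 13.4%, and over all protein-coding genes of known strand they were 41.2%, 24.2% and 25.4%. Zinc-finger genes of the other chromosomes reached 51.4% in hPSC, 24.3% in shLUC and 25.7% in shHNRNPU. The zinc-finger genes of chromosome 19 thus had the highest share of these groups in hPSC and the lowest in both hairpin lists, although there their intervals overlapped those of the other chromosome 19 genes. Other genes that lie among them, described with the clusters below, had slightly lower shares still in the hairpin lists.

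The 3′ end, where the finger array is encoded in most of these genes, showed the reverse order between lists, with intervals that overlapped. A region lay within 1 kb of it in 4 of 216 genes in hPSC (1.85%, interval 0.722 to 4.66%) and in 12 genes in each hairpin list (5.56%, interval 3.21 to 9.46%). Over all protein-coding genes these shares were 5.02% in hPSC, 4.08% in shLUC and 3.82% in shHNRNPU, and for the other genes of chromosome 19 they were 9.08%, 6.81% and 6.60%. Zinc-finger genes of the other chromosomes also had their lowest share in hPSC, at 1.87%, against 2.80% in shLUC and 3.74% in shHNRNPU. The order was thus not particular to chromosome 19. Among regions inside the body, 55.7% of the 140 hPSC regions fell in the first decile of the gene and between 2.86% and 8.57% in each of the others. In shLUC the first decile held 19.8% of 106 regions and the last 10.4%, and in shHNRNPU 18% of 100 and 9%. For the other genes of chromosome 19, the first decile held 26.0% of hPSC regions, 16.2% of shLUC regions and 18.7% of shHNRNPU regions. Away from the gene ends (over 1 kb from either boundary), the members held 65 hPSC, 89 shLUC and 80 shHNRNPU regions. The surplus of hPSC over shLUC was therefore at the ends, where it amounted to 115 regions.

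**Figure D2:**
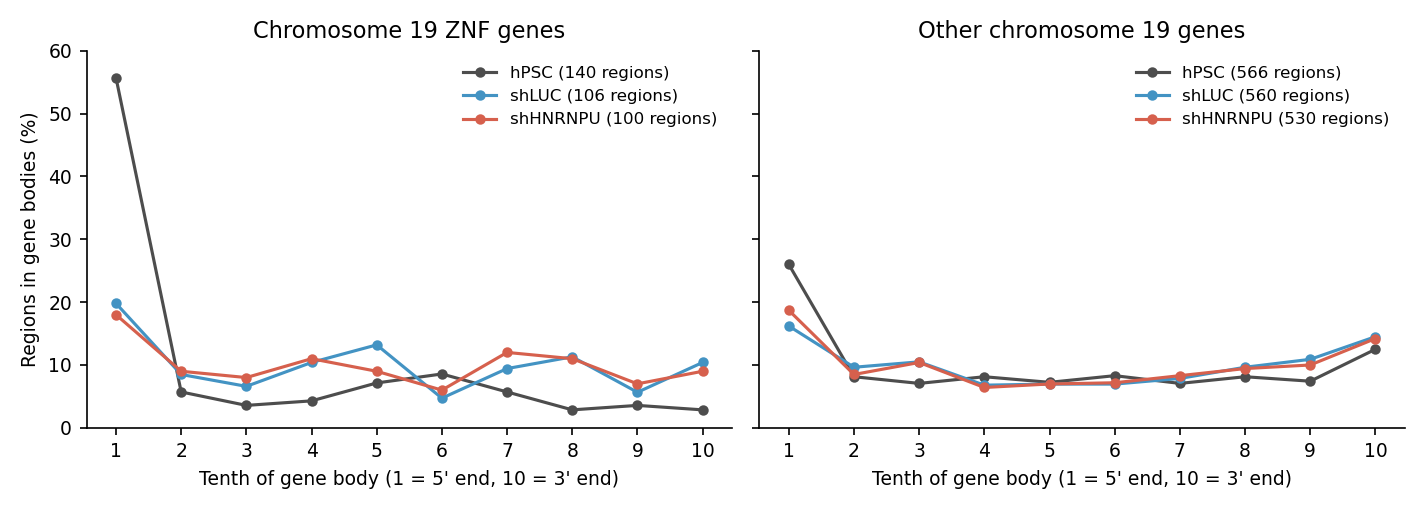
Percentage of the regions inside gene bodies that fall in each decile of the body, from the 5′ to the 3′ end, for ZNF genes (left) and other protein-coding genes of chromosome 19 (right); each line is 1 list and the legend gives its number of gene and region pairs. The hPSC line for ZNF genes starts at 55.7% and drops to 5.71% in the second decile, while the hairpin lines start at 19.8% and 18%.

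Regions at the 5′ end were tightly placed. The 137 hPSC regions there had their centre at a median of 17.5 bp downstream of the start (quartiles -92.5 and 119.5 bp), and 101 of them (73.7%) had the annotated start inside the region. Over all protein-coding genes this share was 55.1% of 6634 hPSC regions. The few hairpin regions at the 5′ end of zinc-finger genes had the start inside in 14 of 20 cases in shLUC (70%) and 21 of 27 in shHNRNPU (77.8%), against 48.4% and 49.9% over all genes. Their centres lay at a median of 99.5 bp downstream of the start in shLUC (quartiles 24.75 and 196.5 bp) and 13.5 bp in shHNRNPU (quartiles -65.5 and 113.5 bp). Of the 136 genes with an hPSC region at the 5′ end, 11 also had one there in shLUC (8.09%) and 20 in shHNRNPU (14.7%), where the shares over all genes were 34.4% and 36.3% of 6526. A 5′ region in hPSC alone was seen in 110 genes (50.9%, against 23.0% of all genes) and in no list in 69 (31.9%, against 46.4%). A hairpin list had one and hPSC did not in 11 genes (5.09%, against 12.4% of all genes), namely ZNF555, ZNF57, ZNF536, ZNF790, ZNF345, ZNF420, ZNF540, ZNF234, ZNF296, ZNF582 and ZNF667. The 5′ end is the outer boundary of the gene here. In ZNF790, ZNF420 and ZNF540 an hPSC region overlapped another annotated promoter, farther inside the gene.

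Promoters were then compared by sequence. RefSeq promoter windows (GRCh38.p14, 250 bp before to 50 bp after a start) were held for 216 of the 246 genes, 268 windows in all. An hPSC region overlapped 159 of them (59.3%), against 29.8% of the 22198 windows of all protein-coding genes. For shLUC the count was 21 (7.84% against 15.6%) and for shHNRNPU 27 (10.1% against 16.6%). The zinc-finger windows had a median GC content of 60% and 20 CpG dinucleotides, close to the 62.3% and 21 of all windows. At similar CpG number the hPSC share was still the higher one. Among windows with 10 to 19 CpGs it was 62% of 100 for zinc-finger genes and 31.0% of 3824 over all genes, and among those with 20 to 29 it was 62.6% of 107 and 46.8% of 5311. In shLUC the order was the opposite, with 2% and 8.81% in the first of these classes and 10.3% and 17.6% in the second. Against the other genes of chromosome 19, with 16.1% and 37.3% in hPSC and 5.24% and 7.21% in shLUC, the hPSC shares of the zinc-finger windows were higher in both classes, and the shLUC share was lower in the first and higher in the second. With 30 or more CpGs, 57.9% of 38 zinc-finger windows had an hPSC region, 21.1% a shLUC region and 23.7% a shHNRNPU region, against 40.2%, 33.2% and 35.3% over all genes. In the hairpin lists the share of zinc-finger promoters with a region rose with CpG number, while in hPSC it was nearly level from 10 CpGs upward.

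Since the chromatin was cut with restriction enzymes, the windows were searched for the sites of the enzymes named in the labels. These are CCGG (MspI), GGCC (HaeIII), GTAC (RsaI), AGCT (AluI), GGATCC (BamHI) and CAGCTG (PvuII), each of which reads the same on both strands, and a PvuII site always contains an AluI site. At least 1 site of 4 bases was present in 100% of the zinc-finger windows and in 98.8% of all windows, with a median of 7 sites in both. MspI sites were in 89.9% of zinc-finger windows and 74.0% of all, HaeIII sites in 88.8% and 84.3%, RsaI sites in 30.6% and 28.0%, and AluI sites in 69.8% and 73.6%. BamHI sites were in 5.22% and 7.22%, and PvuII sites in 16.4% and 18.0%. Zinc-finger windows with a region in at least 1 list (172) and those with none (96) both had a median of 7 sites of 4 bases. MspI sites were in 92.4% of the former and 85.4% of the latter, and BamHI sites in 6.98% and 2.08%. The shares were closer for HaeIII (89.0% and 88.5%), RsaI (29.7% and 32.3%), AluI (69.8% in each) and PvuII (16.3% and 16.7%). The median CpG number was 21 and 18.

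Only 4 promoter windows were overlapped by a region in all 3 lists, those of ZNF787, ZNF835, ZNF543 and ZNF324. Their 250 bases before the start are given first, 5′ to 3′ on the strand of the gene, as the promoters where the 3 lists overlap. ZNF787 lies at chr19:56121296-56121545 (minus strand), ZNF835 at chr19:56671758-56672007 (minus), ZNF543 at chr19:57320222-57320471 (plus) and ZNF324 at chr19:58466830-58467079 (plus), in GRCh38. Capitals mark the 4-base cut sites of MspI, HaeIII, RsaI and AluI.
ZNF787: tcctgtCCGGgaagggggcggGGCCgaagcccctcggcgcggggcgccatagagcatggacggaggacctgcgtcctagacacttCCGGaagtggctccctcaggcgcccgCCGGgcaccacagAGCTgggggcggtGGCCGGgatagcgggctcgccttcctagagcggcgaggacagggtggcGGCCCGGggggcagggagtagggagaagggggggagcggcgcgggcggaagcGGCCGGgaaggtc
ZNF835: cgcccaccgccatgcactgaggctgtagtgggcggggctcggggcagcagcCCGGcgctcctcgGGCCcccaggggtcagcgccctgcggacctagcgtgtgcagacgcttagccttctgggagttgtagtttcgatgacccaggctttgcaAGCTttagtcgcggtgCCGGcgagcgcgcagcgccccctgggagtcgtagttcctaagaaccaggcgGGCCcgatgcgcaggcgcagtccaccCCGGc
ZNF543: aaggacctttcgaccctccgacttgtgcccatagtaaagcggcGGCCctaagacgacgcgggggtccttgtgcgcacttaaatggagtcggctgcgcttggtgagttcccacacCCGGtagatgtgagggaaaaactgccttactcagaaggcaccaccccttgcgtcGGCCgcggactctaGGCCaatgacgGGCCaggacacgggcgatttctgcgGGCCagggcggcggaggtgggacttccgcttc
ZNF324: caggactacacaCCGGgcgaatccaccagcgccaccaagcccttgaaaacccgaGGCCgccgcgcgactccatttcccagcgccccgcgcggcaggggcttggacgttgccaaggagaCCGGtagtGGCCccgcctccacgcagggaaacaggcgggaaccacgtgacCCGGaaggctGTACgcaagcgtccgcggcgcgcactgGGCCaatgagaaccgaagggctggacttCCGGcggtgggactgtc

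These windows were rich in CpG, with 27, 25, 22 and 28 CpGs in the printed bases and a GC content of 74.8%, 69.6%, 62.4% and 68.4% in the order given. In ZNF787 the hPSC region ran from 56121308 to 56121707 and the region of both hairpin lists from 56120971 to 56121370, so that they overlapped without coinciding. ZNF835 had its hPSC region at 56671474 to 56671873 and its hairpin region at 56671565 to 56671964. The pairs for ZNF543 were 57320225 to 57320624 and 57320357 to 57320756, and for ZNF324 58466937 to 58467336 and 58466916 to 58467315. In each of the 4 genes the hairpin lists had the same position, as nearly all regions shared by these lists did, and the hPSC position was offset from it.

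Promoters of 3 related genes of the ZNF101 to ZNF254 cluster and of ZNF534 are shown for contrast. ZNF91 (chr19:23395472-23395721, minus strand), whose protein represses SVA retrotransposons, and ZNF93 (chr19:19900696-19900945, plus), whose protein represses L1 retrotransposons, had a promoter region in hPSC alone. ZNF257 (chr19:22052234-22052483, plus) and ZNF534 (chr19:52428898-52429147, plus) had none in the 3 lists.
ZNF91: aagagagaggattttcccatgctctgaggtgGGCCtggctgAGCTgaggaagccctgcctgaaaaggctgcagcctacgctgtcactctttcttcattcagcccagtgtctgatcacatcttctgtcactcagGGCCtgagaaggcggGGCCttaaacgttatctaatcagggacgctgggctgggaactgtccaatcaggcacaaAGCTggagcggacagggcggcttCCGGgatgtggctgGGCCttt
ZNF93: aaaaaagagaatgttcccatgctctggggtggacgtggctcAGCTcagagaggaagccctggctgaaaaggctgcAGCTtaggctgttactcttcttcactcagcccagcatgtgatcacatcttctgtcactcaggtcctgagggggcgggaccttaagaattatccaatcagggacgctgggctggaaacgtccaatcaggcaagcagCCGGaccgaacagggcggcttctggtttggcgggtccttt
ZNF257: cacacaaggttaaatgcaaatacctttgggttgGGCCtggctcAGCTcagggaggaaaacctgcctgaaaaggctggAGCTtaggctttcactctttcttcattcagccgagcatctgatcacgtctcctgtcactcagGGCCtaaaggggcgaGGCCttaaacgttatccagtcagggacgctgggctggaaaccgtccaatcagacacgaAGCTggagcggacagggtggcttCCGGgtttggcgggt
ZNF534: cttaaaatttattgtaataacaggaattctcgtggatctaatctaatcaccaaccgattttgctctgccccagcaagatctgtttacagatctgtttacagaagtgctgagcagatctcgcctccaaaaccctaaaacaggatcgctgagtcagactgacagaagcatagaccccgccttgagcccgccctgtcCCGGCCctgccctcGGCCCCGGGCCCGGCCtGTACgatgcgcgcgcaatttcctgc

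The first 3 of these sequences are close relatives. ZNF91 and ZNF93 were identical at 83.1% of aligned positions, ZNF91 and ZNF257 at 80.2%, and ZNF93 and ZNF257 at 79.1%, whereas each matched ZNF534 at 49.8 to 50.4%. They held 7, 8 and 10 CpGs in the printed bases. A similar promoter sequence therefore went with an hPSC region in ZNF91 and ZNF93 and with none in ZNF257, where the nearest hPSC region was 200305 bp from the gene body. ZNF257 was not the only such gene there, since no member from ZNF208 to ZNF728 along the chromosome held an hPSC region.

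Described gene by gene, ZNF91 held 1 region in hPSC (23395284 to 23395683, over the start), none in shLUC and 1 in shHNRNPU (23366031 to 23366430, within the body). ZNF93 had 1 hPSC region at its start (19900861 to 19901260) and none in either hairpin list. In ZNF257, both hairpin lists had the region 22077908 to 22078307 in the body and hPSC had none. ZNF534 had 0 regions in the 3 lists, and so had ZNF676, the longest member without one (81216 bp). ZNF417 and ZNF587, which code for repressors of the endogenous retrovirus HERVK, each had 1 hPSC region, at a gene boundary in ZNF417 (57916457 to 57916856) and at the start in ZNF587 (57849646 to 57850045). ZNF587 also had 1 shLUC region deeper in the gene (57856155 to 57856554), and neither gene had one in shHNRNPU.

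ZNF274, whose protein binds the 3′ ends of zinc-finger genes and recruits SETDB1 there, had 2 regions in hPSC and 1 in each hairpin list. The hPSC region in its body (58204046 to 58204445) was in shHNRNPU at identical coordinates, while shLUC had another position (58194611 to 58195010). ZNF154, a gene often hypermethylated in tumours, had 2 regions in hPSC, at its 5′ end (57708885 to 57709284) and its 3′ end (57696395 to 57696794), 1 in shLUC and 0 in shHNRNPU. ZNF382 had 1 region in each list, identical in the hairpin lists (36610943 to 36611342). In ZNF568, a repressor gene whose mouse counterpart silences a placental Igf2 transcript, there were 3 regions in hPSC, 1 in shLUC and 2 in shHNRNPU. Its start lies next to that of ZNF829, which runs the other way, and the space between them had a region in hPSC (36916017 to 36916416) and in shHNRNPU (36916065 to 36916464) but not in shLUC.

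The member with the most regions was ZNF536, a gene for a repressor of neuronal differentiation and the longest one (487995 bp), which lies outside the clusters. It was an exception to the general order of the lists, with 2 regions in hPSC, 8 in shLUC and 7 in shHNRNPU. The imprinted gene ZNF331 followed with 4 regions in hPSC and 3 in each hairpin list. Its hPSC regions included one at an upstream promoter (53521007 to 53521406), and the hairpin lists shared one at a promoter farther downstream (53554115 to 53554514). ZNF69 had 5 regions in hPSC, 2 in shLUC and 1 in shHNRNPU, and ZNF569 had 3, 2 and 2. The shortest gene with a region in each list was ZNF580 (2469 bp), with 1 in each.

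Few regions were shared between hPSC and a hairpin list, and most were shared between the hairpin lists. Of the 212 hPSC regions in zinc-finger genes, 20 overlapped a shLUC region (9.43%, interval 6.19 to 14.1%) and 26 a shHNRNPU region (12.3%, interval 8.51 to 17.4%), against 14.0% and 15.6% over the whole hPSC list. Seen from the hairpin lists, the same regions were 16.5% of 121 shLUC regions and 21.8% of 119 shHNRNPU regions, against 14.2% and 17.3% over the whole lists. The hairpin lists had 80 regions in common, which were 66.1% of the shLUC regions (interval 57.3 to 73.9%) and 67.2% of the shHNRNPU regions (interval 58.4 to 75.0%), against 70.8% and 76.8% over the whole lists. All 80 had identical coordinates in both hairpin lists, whereas 5 of the 20 shared by hPSC and shLUC did (25%). The whole lists showed the same, with 27865 of 27868 shared hairpin regions identical and 31.0% of those that hPSC shared with shLUC. This was thus a trait of the lists and not of these genes. The hPSC regions found in no other list were 175 (82.5%, against 79.8% of the whole list).

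Seen from the hairpin lists, sharing with hPSC was more frequent near the gene ends (1 kb). There, 12 of 32 shLUC regions overlapped an hPSC region (37.5%, interval 22.9 to 54.7%), against 8 of 89 farther inside (8.99%, interval 4.63 to 16.7%). In shHNRNPU the counts were 20 of 39 (51.3%, interval 36.2 to 66.1%) and 6 of 80 (7.50%, interval 3.48 to 15.4%). Over all protein-coding genes the shares had the same order, at 45.0% and 9.11% of shLUC regions and 46.6% and 11.7% of shHNRNPU regions. Seen from hPSC, the zinc-finger genes showed this order against shHNRNPU but not against shLUC, and in both cases their intervals overlapped. Of the hPSC regions near an end, 12 of 147 overlapped a shLUC region (8.16%, interval 4.73 to 13.7%), against 8 of 65 farther inside (12.3%, interval 6.37 to 22.5%), where all genes had 29.5% and 10.4%. The overlap with shHNRNPU was 13.6% near an end (interval 8.98 to 20.1%) and 9.23% farther inside (interval 4.30 to 18.7%), where all genes had 31.4% and 12.0%. Between the hairpin lists, 62.5% of shLUC regions near an end and 67.4% of the others overlapped a shHNRNPU region, against 77.2% and 69.4% over all genes.

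Positions in all 3 lists numbered 9, in 9 genes: ZNF575, ZNF808, ZNF579, ZNF787, ZNF835, ZNF543, ZNF135, ZNF497 and ZNF324, the last of which was added to the named genes after its values were seen. In ZNF808, a gene required for human pancreas development, this position lay within the body (52558696 to 52559095 in hPSC and 52558453 to 52558852 in both hairpin lists). In ZNF575 it lay near the 3′ end (43535438 to 43535837 in hPSC and 43535119 to 43535518 in the hairpin lists).

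**Figure D3:**
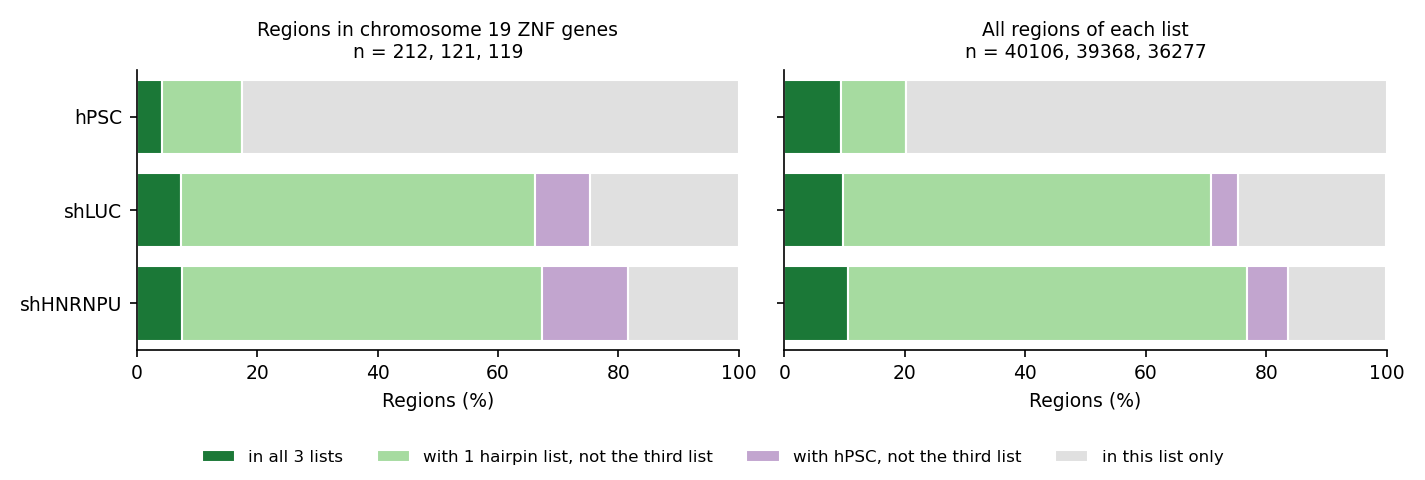
Percentage of the regions of each list by the other lists in which they overlap a region, for regions in chromosome 19 ZNF genes (left) and for the whole lists (right); the number of regions of hPSC, shLUC and shHNRNPU is given above each panel. Regions found in hPSC only make up 82.5% of hPSC regions in ZNF genes, and regions of all 3 lists 4.25%, against 79.8% and 9.46% of the whole list.

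The HNRNPU hairpin was compared with the hairpin control in the same genes. The number of regions was nearly equal, 119 in shHNRNPU and 121 in shLUC, a log2 ratio of -0.02 (exact interval -0.40 to 0.35), where the whole lists had -0.12 and the other genes of chromosome 19 -0.09. Fewer regions in shHNRNPU than in shLUC were counted in 33 genes (13.4%), where 18.8% of all protein-coding genes had fewer. More were counted in 34 genes (13.8%), where 14.1% of all genes had more, and 179 genes had the same number. Of the 33, 24 went from a shLUC region to none (9.76% of the 246 genes, against 7.09% of all genes), and 29 of the 34 went from none to a shHNRNPU region (11.8%, against 6.36% of all genes). The interval of the ratio includes 0 and the ratio of the whole lists. It treats the hairpin lists as separate counts, although 80 of the regions were in both.

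The largest losses by count were 2 regions each in ZNF420 (1 region in hPSC, 3 in shLUC and 1 in shHNRNPU), ZNF264 (1, 2 and 0 in the same order) and ZNF841 (0, 2 and 0). ZNF264 had shLUC regions at 57191444 to 57191843, over its start and nearly coincident with the hPSC region (57191441 to 57191840), and at 57192698 to 57193097. The only gain of 2 regions was in ZNF347, from 1 shLUC region to 3 in shHNRNPU with 1 in hPSC, and one of the gained regions lay at its 5′ end (53158947 to 53159346). In 33 genes the gain was 1 region, among them ZNF568 and ZNF653. In ZNF653 the added region (11496372 to 11496771) was at identical coordinates in hPSC. For untreated against hairpin control, the numbers were less even: 120 genes had fewer regions in shLUC than in hPSC (48.8%, where 31.8% of all genes had fewer) and 37 had more (15.0%, where 25.5% had more). The shLUC list enters both comparisons.

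The genes fell into 10 clusters of at least 5 members with no gap over 500 kb between neighbours, which held 232 of the 246 genes. The share of members with a region in hPSC rose from 40% in the 5 genes of the ZNF554 to ZNF77 cluster (chr19:2819868-2944971) to 88.4% in the 43 genes of the ZNF264 to ZNF446 cluster (chr19:57191500-58489533) at the end of the long arm. It was higher than in shLUC in 8 of 10 clusters and equal in the others, which were the clusters of 5 genes. The widest gap was in the ZNF575 to ZNF180 cluster (23 genes, chr19:43530835-44500522), where 15 genes had a region in hPSC, 3 in shLUC and 7 in shHNRNPU. The ZNF628 to ZNF835 cluster (16 genes, chr19:55476617-56671757) had nearly the same count in the 3 lists, at 13, 11 and 13.

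At the 5′ end, clusters differed in the same manner. The ZNF101 to ZNF254 cluster (chr19:19668153-24129968), which holds ZNF91, ZNF93 and ZNF257, had a region at the 5′ end in 24 of 29 genes of known strand in hPSC (82.8%), in 1 in shLUC and in 2 in shHNRNPU. The 29 leave out genes of unknown strand, several of which had no hPSC region, among them ZNF676, ZNF729 and ZNF98. Of all 37 genes of this cluster, 26 had an hPSC region at any position (70.3%). In the ZNF175 to ZNF331 cluster (chr19:51571283-53580269) the counts were 19 of 32 in hPSC, 0 in shLUC and 4 in shHNRNPU. In the ZNF653 to ZNF791 cluster (chr19:11483429-12633834) they were 13, 0 and 1 of 24. The ZNF628 to ZNF835 cluster had a 5′ region in 4 of 14 genes in shLUC and 5 of 14 in shHNRNPU, beside 9 in hPSC.

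Between the hairpin lists, the region count of the ZNF264 to ZNF446 cluster went from 26 in shLUC to 18 in shHNRNPU. Of its 43 genes, 10 had fewer regions and 3 more, where 18.8% of all protein-coding genes had fewer and 14.1% more. In the ZNF302 to ZNF792 cluster (5 genes, chr19:34675979-34964229) 3 genes had a shLUC region and none a shHNRNPU region. In the other direction, the ZNF575 to ZNF180 cluster went from 3 regions to 7, with more in 4 of its 23 genes and fewer in none. These counts are small, and no test was made of single clusters.

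**Figure D4:**
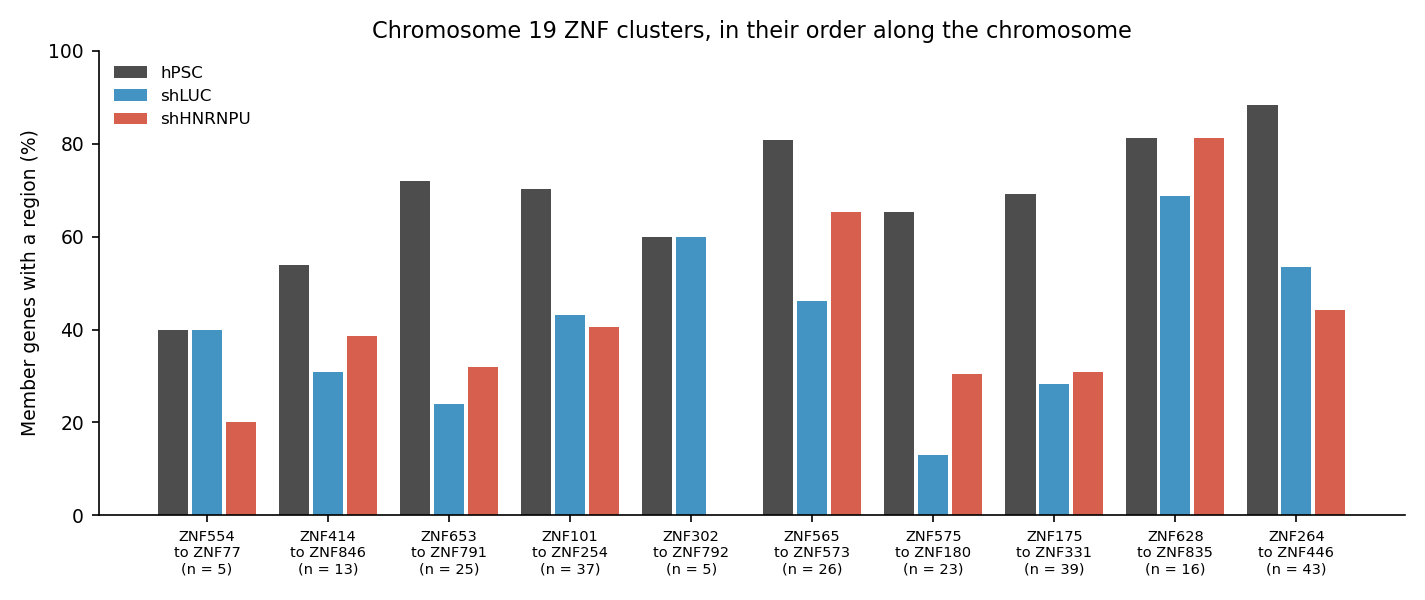
Percentage of member genes with a region in each of the 10 ZNF clusters of chromosome 19, ordered along the chromosome and named by their first and last gene; bars are the 3 lists, n is the number of genes, and clusters with n = 5 rest on very few genes. The hPSC bar is above the shLUC bar in 8 clusters and level with it in the other two.

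The first and last genes of the clusters had an hPSC region in 19 of 20 cases (95%), against 151 of the 212 inner genes (71.2%). In shLUC the counts were 11 of 20 (55.0%) and 80 of 212 (37.7%), and in shHNRNPU 9 of 20 (45%) and 88 of 212 (41.5%). The other protein-coding genes that lie inside the cluster spans were looked at in the same way. They were set apart by symbol, and their family was not checked. The readthrough and divergent symbols left out above are among them. Of these 90 genes, 40% had a region in hPSC and 37.8% in each hairpin list, and of the 75 with known strand 21 had one at the 5′ end in hPSC (28.0%, interval 19.1 to 39.0%). Their 5′ share in hPSC was near the 29.3% of the 894 other genes outside the spans. It was below the 63.0% of the ZNF genes examined here. In the hairpin lists their 5′ shares were 8% in shLUC (interval 3.72 to 16.4%) and 12% in shHNRNPU (interval 6.44 to 21.3%). These were close to the 9.26% and 12.5% of the ZNF genes, so the low hairpin shares were not particular to the ZNF genes.

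The other genes of the KRAB zinc-finger pathway, 19 corepressor, heterochromatin and DNA methylation genes, are mostly on other chromosomes. An hPSC region was in 17 of them (89.5%, against 63.0% of all genes), a shLUC region in 15 (78.9%, against 55.6%) and a shHNRNPU region in 15 (78.9%, against 54.9%). TRIM28, which lies on chromosome 19 beyond the last cluster, had 0 regions in hPSC and 1 in each hairpin list. SETDB1 had 2 regions in hPSC and 0 in each hairpin list, as had CBX5, which codes for the heterochromatin protein HP1α. TASOR, a subunit of the HUSH silencing complex, and DNMT3B, a de novo DNA methyltransferase, each had 3 in hPSC and 0 in each hairpin list. DNMT1, the maintenance methyltransferase on chromosome 19, had 0 in hPSC, 3 in shLUC and 1 in shHNRNPU. More regions in shLUC than in hPSC were also held by MPHOSPH8 (1 in hPSC, 3 in shLUC and 1 in shHNRNPU), PPHLN1 (1, 2 and 2), CHD4 (1, 2 and 2) and UHRF1 (1, 3 and 1). CBX1, CBX3, CHD3 and MORC2 each had the same number in all lists. ATF7IP, SMARCAD1, DNMT3A, EHMT1 and EHMT2 had fewer in shLUC than in hPSC, but had some in each list. From shLUC to shHNRNPU, 6 of the 19 had fewer regions (31.6%, against 18.8% of all genes) and 0 had more, against 14.1% of all genes. Many of these genes are long, and longer genes hold more regions.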

How the data were processed

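MAR-seq regions of H1 cells were taken as deposited, as 1 list for each group of 2 samples. The authors deposited the start and end of each region, all 400 bp wide, and a score column that held 0 in each row, so no score was used. Per the labels, reads were processed with cutadapt, Bowtie2, SAMtools, MACS2 and deepTools on hg38; versions, thresholds, the use of the input sample and how the samples of a group were combined are not given in the sources used here. The labels give total or polyA RNA as the molecule although their protocol isolates DNA. Groups came from the sample titles. No methods were taken from the accompanying paper, which reports other experiments.

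Gene bodies came from the RefSeq table of GRCh38.p14, and strand and promoter sequence from RefSeq promoter records. Regions were counted by overlap of at least 1 bp with a gene body plus 1 kb. Shares have 95% Wilson intervals and log2 ratios of counts exact binomial ones, which cover counting error only. Promoters were aligned globally with Biopython 1.88. Python 3.11.15, pandas 2.3.3 and scipy 1.17.1 were used, and the counting code was tested on simulated lists. Members, lists and comparisons were chosen with earlier results of these data known. Named genes were 12 members of known role or interest, the 5 with the most regions, the 3 largest losses and gains between the hairpin lists, 8 with a position in all 3 lists, and the longest without and shortest with regions.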

Additional observations from a re-analysis of the deposited data

How the results depend on the processing

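The shares of genes with a region and their differences from other chromosome 19 genes, the shares near an end and at the 5′ end, the shares of shared regions, the genes with fewer or more regions and the log2 ratios, 19 values in all, were recomputed. Each had those of these alternatives that apply to it: regions counted by their centre, no flank or a 5 kb flank, symbols of digits alone, regions under 1 kb apart merged, genes of 10 to 50 kb, other distances or overlaps. Other values, such as those on 3′ ends, deciles, promoters, clusters, densities and pathway genes, were not recomputed. The alternatives for 5′ ends and for shLUC against hPSC were chosen after seeing the data. Of 96 recomputed values, 86 stayed within the interval of the reported value or, for counts, within a factor of 1.5. With a 5 kb flank the share of genes with a region was 79.3% in hPSC, 50.4% in shLUC and 54.1% in shHNRNPU, since a wider span holds more regions. Among genes of 10 to 50 kb the difference from other chromosome 19 genes was -11.3 points in shLUC and turned to -8.20 points in shHNRNPU. The share of regions near a gene end, 26.4% in shLUC and 32.8% in shHNRNPU, became 18.2% and 23.5% within 500 bp, and 36.4% in shLUC within 2 kb. Counting identical coordinates alone left 2.36% of hPSC regions shared with shLUC and 4.25% with shHNRNPU. Without ZNF536 the log2 ratio of shLUC to hPSC was -0.89. No paired analysis was possible because the deposited lists join the 2 samples of a group, and leaving out a sample was not possible either. Read depth and region heights are not in the lists, so a region absent from a list is only one that was not called there, and depth and calling cannot be told apart from the groups.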
